A study of Mus musculus with 24 samples.

Results

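Lungs of mice given C-DEP together with ovalbumin were compared with lungs of mice given A-DEP together with ovalbumin, using 6 of the 24 arrays of the series, chosen by their sample titles. C-DEP and A-DEP (written CDEP and ADEP here) are diesel exhaust particle samples that the study calls chemically distinct, and ovalbumin (OVA) is an egg white protein used as a model allergen. The CDEP/OVA group holds 3 lung samples of female BALB/C mice that received 150 ug CDEP and 20 ug OVA in the nose on days 0 and 13. The ADEP/OVA group holds 3 lung samples of female BALB/C mice that received 150 ug ADEP and 20 ug OVA on the same days. All were 8 to 10 weeks old, and lungs were taken 18 hours after the last dose. The labels mark all mice given OVA as sensitized. Sets of 3 samples from mice that received CDEP alone, ADEP alone, OVA with saline (Saline/OVA), or saline alone serve as further points of comparison, and another particle sample with or without OVA (NDEP/OVA and NDEP) is given for level only. The difference in response to the particles when the same allergen accompanies them is the question of the comparison. What the particles contain is not given in the labels used here.

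Allergic airway inflammation is driven by type 2 cytokines such as interleukin 4 and interleukin 13, which make airway epithelium form mucus-producing goblet cells and induce chitinase-like proteins in epithelium and macrophages. Interferon-gamma, a cytokine of natural killer cells and type 1 T cells, induces a different set of genes, among them the chemokines Cxcl9, Cxcl10 and Cxcl11, which attract T cells, and the guanylate-binding proteins and immunity-related GTPases, which act against intracellular microbes. Heat shock genes encode chaperones that refold damaged proteins in the cytosol.

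Levels are log2 intensity of 1 probe set per gene, and differences are log2 fold changes of CDEP/OVA over ADEP/OVA followed by their SE, with 3 arrays in each group. A gene was called when its limma adjusted p was under 0.05 over all 12393 genes. A gene was dim in a group when its mean there was under the 25th percentile of genes on all 3 of that group's arrays. Such a gene is not shown to lie above background, and the size of its change is uncertain.

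The 8 genes that define lung tissue, among them the surfactant genes Sftpb and Sftpc and the club cell gene Scgb1a1, averaged 11.05 ± 0.06 log2 in CDEP/OVA lungs and 10.98 ± 0.15 in ADEP/OVA lungs (SD, n = 3 each). Markers of tissue that borders the lung had lower means in CDEP/OVA lungs. The 22 heart muscle genes averaged 6.99 ± 0.20 log2 in CDEP/OVA lungs and 7.43 ± 0.13 in ADEP/OVA lungs, and the 10 fat genes averaged 5.65 ± 0.22 in CDEP/OVA lungs and 6.35 ± 0.16 in ADEP/OVA lungs (SD, n = 3 each), with no overlap of arrays for either list. An exact two-sided permutation test gave p = 0.1 for each list, the smallest that 3 against 3 arrays allow. The summed intensity of the heart list lay between 3522 and 4982 in CDEP/OVA lungs and between 5538 and 6817 in ADEP/OVA lungs. That of the fat list lay between 1372 and 1581 in CDEP/OVA lungs and between 1868 and 2711 in ADEP/OVA lungs, and no member of either list was at 0. In whole lung RNA, fewer cells of a type and less RNA per cell cannot be told apart, here and for every gene below. RNA quality, read as the log2 difference between the 3' and 5' probe sets of Gapdh, was 0.396 ± 0.196 in CDEP/OVA arrays and 0.195 ± 0.090 in ADEP/OVA arrays (exact two-sided permutation p = 0.3, SD, n = 3 each). With genes split by mean level into 4 equal bins, the median log2 fold change was -0.12 in the dimmest bin and 0.05 in the brightest, and after a further quantile normalization these medians were -0.01 and -0.01.

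Genes of chitinase-like proteins and mucus, and chemokines and GTPases inducible by interferon-gamma, were higher in CDEP/OVA than in ADEP/OVA lungs. Of 12393 genes, 177 (1.43%) were called in the limma test, 101 higher (0.815%) and 76 lower (0.613%) in CDEP/OVA lungs. The counts of called genes in the lists below stand beside these shares. Of the 101 higher genes 32 are in at least 1 of the 57 gene lists, and of the 76 lower genes 6 are. The other called genes are in none of the lists. Of all 12393 genes, 691 are list members. The higher genes had a median log2 fold change of 0.64 and 21 of them differed by 2-fold or more, whereas the lower genes had a median of -0.48 and only Ehd2 differed by 2-fold or more. Arrays of the groups did not overlap for 98 of the higher genes and for all 76 lower genes. Of all genes measured 22.3% did not overlap, 9.41% higher and 12.9% lower with CDEP/OVA. The highest and lowest genes named below were picked from called genes without overlap, so their separation is no further support. Single arrays carried many calls. Of the 177 genes, 33 were still called without CDEP/OVA replicate 2, 34 without ADEP/OVA replicate 1, 51 without ADEP/OVA replicate 3 and 55 without CDEP/OVA replicate 3. Without CDEP/OVA replicate 1 there were 148, and without ADEP/OVA replicate 2 there were 158. All 177 kept their direction in each of these fits. With the means of the heart and fat lists as covariates 24 genes were called higher and 19 lower, and with only the 6 arrays in the fit 12 were called higher and 7 lower. With these covariates all 177 genes kept their direction. Their median absolute log2 fold change was 0.536, against 0.549 in the main fit, and their median SE was 0.147, against 0.123. Why calls were lost was not tested. The lower genes numbered 41 after a further quantile normalization and 43 with RNA quality as covariates. After median centring 98 genes were called higher and 102 lower, so that 49% of calls were higher, against 62.39% after quantile normalization and 57.06% as deposited. The 17 genes called whichever single array of the 6 was left out were Chil4, Chia1, Muc5ac, Cxcl9, Gbp3, Gbp6, Gbp8, Igtp, Irgm2, Gzma, Scin, Bag3 and Eri1 among the higher genes, and Ehd2, Fabp3, Fbln1 and Gad2 among the lower genes. With the heart and fat covariates, Gbp3, Gbp8, Irgm2, Gzma, Bag3 and Fabp3 of these 17 lost their calls (adjusted p between 0.0543 and 0.0873). Irgm2, Scin and Eri1 were named after their values were seen.

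**Figure D1:**
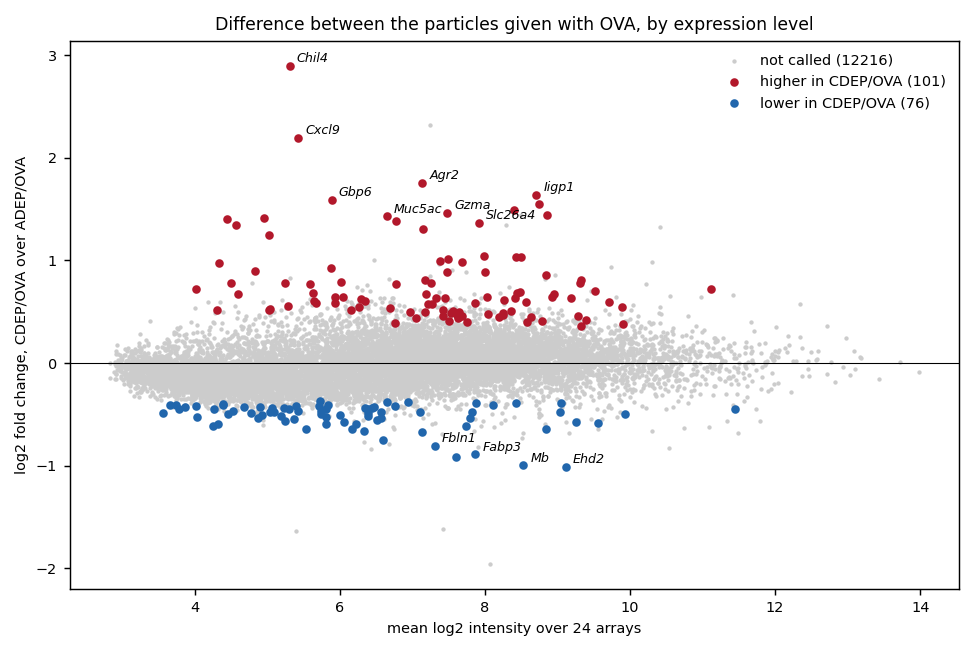
Log2 fold change of CDEP/OVA over ADEP/OVA (vertical axis) against the mean log2 intensity over 24 arrays (horizontal axis), 1 point per gene, with 101 genes called higher in red and 76 called lower in blue. The higher genes reach 2.90 (Chil4), the lower genes reach -1.01 (Ehd2), and the called lower genes lie mostly at low and middle levels.

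The largest difference among called genes was in Chil4, which encodes Ym2, a chitinase-like protein of the allergic mouse airway. Its level was 7.79, 7.38 and 9.14 log2 in the 3 CDEP/OVA lungs, against 4.87, 5.61 and 5.13 in the ADEP/OVA lungs. Every CDEP/OVA lung lay above every ADEP/OVA lung, and the log2 fold change was 2.90 ± 0.27 (limma adjusted p = 1.03e-06), or 7.45-fold. NDEP/OVA lungs averaged 7.14 ± 0.39, while lungs given Saline/OVA, CDEP alone, ADEP alone or saline averaged between 4.32 and 4.48.

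Chil3, which encodes the related protein Ym1 of alternatively activated macrophages, measured 10.57, 10.29 and 10.57 log2 with CDEP/OVA, against 9.02, 9.38 and 8.38 with ADEP/OVA, a log2 fold change of 1.55 ± 0.33 (adjusted p = 0.0195). Chia1, acidic mammalian chitinase, measured 10.42, 10.62 and 10.60 log2 with CDEP/OVA, against 8.29, 9.66 and 9.39 with ADEP/OVA (1.44 ± 0.24, adjusted p = 0.00361). These CDEP/OVA lungs were close to each other, and the lowest ADEP/OVA lung for Chia1 was replicate 1. Arg1, the arginase of alternatively activated macrophages, was 7.06, 8.53 and 6.71 log2 with CDEP/OVA, against 6.38, 5.94 and 5.75 with ADEP/OVA (1.41 ± 0.33, adjusted p = 0.0322). With CDEP/OVA replicate 2 left out, the Arg1 log2 fold change was 0.86 and its adjusted p was 0.171, and the call was also lost without any one ADEP/OVA array (0.0512 to 0.0966). The 13 measured genes of chitinase-like proteins and alternatively activated macrophages held these 4 called members and a median log2 fold change of 0.22, against -0.03 over all genes. Retnla, a further marker of this state, was bright in both groups, at 13.75, 13.60 and 13.74 log2 with CDEP/OVA, against 13.07, 13.40 and 13.53 with ADEP/OVA, and its difference of 0.36 ± 0.44 did not pass (95% interval -0.55 to 1.27). Between 2 and 4 members were called when 1 array was left out, with 2 called without CDEP/OVA replicate 2, without ADEP/OVA replicate 1 or without ADEP/OVA replicate 3. Chil3 lost its call in the same 3 fits and without CDEP/OVA replicate 3, with adjusted p between 0.0618 and 0.0889. Chil3 and Chil4 are close paralogs, and how far their probe sets share signal was not tested.

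Of the 14 measured goblet cell and mucus genes, 6 were called higher and none lower, with a median log2 fold change of 0.82. Over all genes 0.815% were called higher. Muc5ac, the gel-forming mucin that goblet cells add in allergy, was 7.78, 7.92 and 8.55 log2 in CDEP/OVA lungs, against 6.29, 6.70 and 6.97 in ADEP/OVA lungs. The groups were separated for this gene, and the log2 fold change was 1.43 ± 0.18 (adjusted p = 0.000157). Agr2, an endoplasmic reticulum protein needed to fold mucins, was 9.34, 9.19 and 9.83 with CDEP/OVA, against 6.41, 8.19 and 8.49 with ADEP/OVA (1.75 ± 0.45, adjusted p = 0.0492). Its lowest lung by far was ADEP/OVA replicate 1, and without that array the log2 fold change was 1.11 with an adjusted p of 0.26. The call was also lost without any one CDEP/OVA array (0.0558 to 0.179).

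Slc26a4 encodes pendrin, an anion exchanger of the airway surface. It was 10.01, 10.32 and 9.59 log2 with CDEP/OVA, against 8.00, 9.18 and 8.64 with ADEP/OVA (1.37 ± 0.29, adjusted p = 0.0195). NDEP/OVA lungs averaged 9.81 ± 0.15, near the CDEP/OVA lungs (9.97 ± 0.37). Lungs given CDEP alone averaged 7.82 ± 0.24 and those given ADEP alone 7.35 ± 0.24, with Saline/OVA lungs at 5.84 ± 0.62 and saline lungs at 5.76 ± 0.68 (SD, n = 3 each). Trefoil factor Tff2 (1.02 ± 0.23, adjusted p = 0.0256), the mucus protein Fcgbp (0.99 ± 0.25, adjusted p = 0.0423) and intelectin Itln1 (0.78 ± 0.19, adjusted p = 0.0415) were also called, although the Fcgbp arrays overlapped and Itln1 was dim in ADEP/OVA lungs. Fcgbp was named after its values were seen.

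Clca1, a goblet cell secretory protein, showed a large but uneven difference. It was 11.96, 11.51 and 12.33 log2 with CDEP/OVA, against 7.92, 10.80 and 10.13 with ADEP/OVA, and the log2 fold change of 2.32 ± 0.90 did not pass (adjusted p = 0.149, 95% interval 0.47 to 4.17). A second, dimmer probe set of Clca1 gave 0.83 ± 0.20 and passed over all probe sets (adjusted p = 0.0469). Muc5b, the mucin of resting airways, gave 0.86 ± 0.28 and did not pass (adjusted p = 0.0982). ADEP/OVA replicate 1 was the lowest array of its group for Muc5ac, Agr2, Slc26a4, Tff2, Fcgbp, Itln1, Clca1 and Muc5b alike. Without it, only Muc5ac of the goblet cell genes was still called. The count was 2 without CDEP/OVA replicate 3, 3 without CDEP/OVA replicate 2, 4 without CDEP/OVA replicate 1 and 5 without either other ADEP/OVA array. Without ADEP/OVA replicate 1 the adjusted p was 0.161 for Slc26a4, 0.178 for Tff2, 0.214 for Itln1 and 0.245 for Fcgbp. With RNA quality as covariates 3 goblet cell genes were called, and with the heart and fat lists as covariates 1 was.

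**Figure D2:**
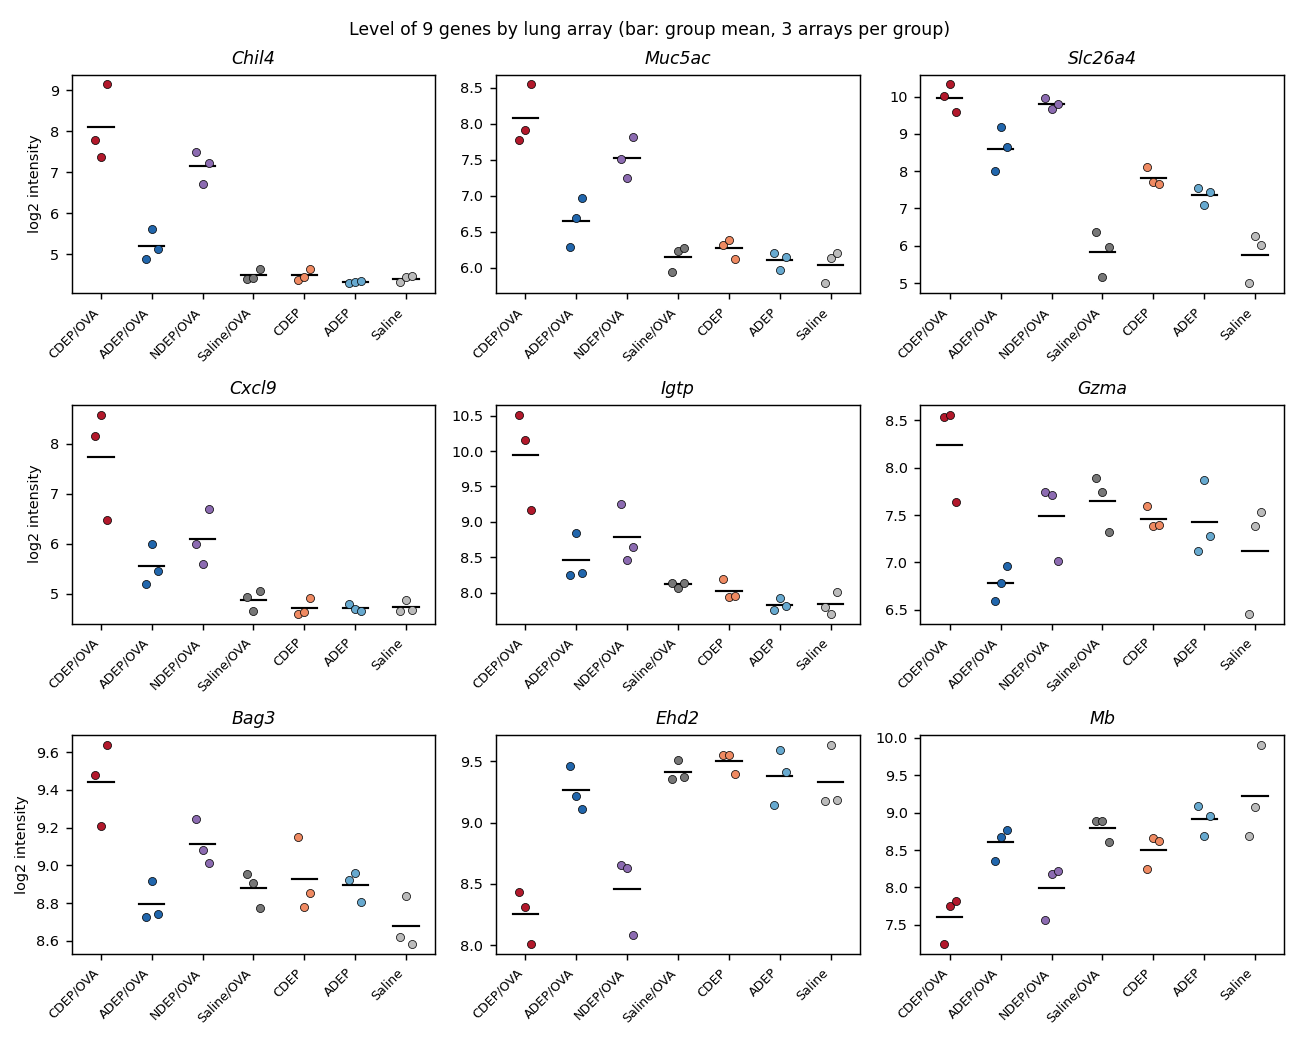
Log2 intensity of 9 genes (vertical axes) in each lung, by group (horizontal axes), with points for arrays and bars for the means of 3 arrays. CDEP/OVA lungs averaged 8.10 for Chil4, against 5.21 in ADEP/OVA lungs, and 8.08 for Muc5ac, against 6.65 in ADEP/OVA lungs. Ehd2 averaged 8.25 in CDEP/OVA and 9.26 in ADEP/OVA lungs.

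The type 2 cytokines themselves were near the bottom of the intensity range. Il4 was 3.91 log2 on average in CDEP/OVA lungs and 4.01 in ADEP/OVA lungs, Il5 was 4.20 in CDEP/OVA and 4.39 in ADEP/OVA lungs, and Il13 was 4.39 in CDEP/OVA and 4.54 in ADEP/OVA lungs. All 3 were dim, and their log2 fold changes of -0.09 ± 0.12, -0.20 ± 0.12 and -0.15 ± 0.10 did not pass. The 95% intervals reached from -0.35 to 0.16 for Il4, from -0.45 to 0.05 for Il5 and from -0.36 to 0.06 for Il13. Of 15 measured type 2 cytokines and receptors, only Il33 was called. Il33, an epithelial alarmin that activates type 2 lymphocytes and is also listed here among alveolar type 2 cell genes, was 8.04, 8.91 and 8.18 log2 with CDEP/OVA, against 7.35, 7.78 and 7.33 with ADEP/OVA (0.89 ± 0.22, adjusted p = 0.0393). Its call was lost without CDEP/OVA replicate 2 or 3 or ADEP/OVA replicate 1 or 3, with adjusted p between 0.0587 and 0.202. Il25 (-0.31 ± 0.10, adjusted p = 0.0997) and Il5ra (-0.24 ± 0.10, adjusted p = 0.172) were dim and did not pass.

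Eosinophil markers did not differ detectably. None of 8 measured markers was called, all 8 had a log2 fold change below 0, and the median was -0.18, with a median of -0.12 over the dimmest bin of all genes. With 1.43% of all genes called, none is a usual count for so short a list. Epx, eosinophil peroxidase, was 3.88, 3.74 and 3.80 log2 with CDEP/OVA, against 4.07, 4.20 and 4.23 with ADEP/OVA (-0.36 ± 0.11, adjusted p = 0.092). Prg2, major basic protein, gave -0.24 ± 0.11 (adjusted p = 0.225). Rnase2a, a member of the ribonuclease family that includes the eosinophil-associated ribonucleases, stood apart from them at 6.17, 6.66 and 6.15 log2 with CDEP/OVA, against 4.71, 5.45 and 4.79 with ADEP/OVA (1.35 ± 0.26, adjusted p = 0.0126). Its call was lost without CDEP/OVA replicate 2 (adjusted p = 0.0849), ADEP/OVA replicate 1 (0.0822) or ADEP/OVA replicate 3 (0.0532), and its family members are similar in sequence. The eosinophil chemokines Ccl11 (0.22 ± 0.14, adjusted p = 0.367) and Ccl24 (0.12 ± 0.18, adjusted p = 0.721) did not pass. Ccl17, which attracts type 2 T cells, was 7.37, 7.13 and 7.04 log2 with CDEP/OVA, against 7.57, 7.74 and 7.74 with ADEP/OVA, and its difference of -0.51 ± 0.18 did not pass (adjusted p = 0.124).

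The second large group of higher genes was inducible by interferon-gamma. Of 16 measured chemokines, GTPases and related genes of this list, 12 were called higher and none lower, with a median log2 fold change of 0.89. The share called higher over all genes was 0.815%. Irgm2 and Gbp8, described with them, are not in this list and are not counted among the 12. Cxcl9 was 8.15, 8.59 and 6.48 log2 in CDEP/OVA lungs, against 5.19, 5.98 and 5.46 in ADEP/OVA lungs, a log2 fold change of 2.19 ± 0.33 (adjusted p = 0.00152). Cxcl10 was 8.68, 9.10 and 7.34 with CDEP/OVA, against 7.22, 7.20 and 6.57 with ADEP/OVA (1.38 ± 0.29, adjusted p = 0.0173). In both genes CDEP/OVA replicate 3 was lower than the other CDEP/OVA lungs and still above every ADEP/OVA lung. Cxcl11 gave 0.90 ± 0.22 (adjusted p = 0.0423) but was dim in ADEP/OVA lungs, and its other probe set gave -0.17 ± 0.09.

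Among the immunity-related GTPases, Igtp was 10.51, 10.16 and 9.17 log2 with CDEP/OVA, against 8.25, 8.84 and 8.28 with ADEP/OVA (1.49 ± 0.22, adjusted p = 0.00152). Iigp1 gave 1.64 ± 0.30 (adjusted p = 0.00753), and its other probe set gave 1.67 ± 0.24. Irgm2 gave 1.31 ± 0.23 (adjusted p = 0.00618), Irgm1 1.04 ± 0.19 (adjusted p = 0.0074) and Ifi47 1.04 ± 0.23 (adjusted p = 0.026). Among the guanylate-binding proteins, Gbp6 was 8.08, 8.03 and 7.04 log2 with CDEP/OVA, against 6.29, 6.29 and 5.80 with ADEP/OVA (1.59 ± 0.21, adjusted p = 0.000301). Gbp8, dim in ADEP/OVA lungs, gave 1.40 ± 0.23 (adjusted p = 0.00337), Gbp2 gave 0.88 ± 0.19 (adjusted p = 0.0195), Gbp7 gave 0.86 ± 0.18 (adjusted p = 0.0173) and Gbp3 gave 0.78 ± 0.13 (adjusted p = 0.00412). Arrays of the groups did not overlap for any of these GTPases, as for 98 of the 101 genes called higher. CDEP/OVA replicate 3 was the lowest of its group for each of these GTPases. Ido1, which degrades tryptophan, was also called (0.72 ± 0.14, adjusted p = 0.0131) and dim in both groups. Ifng itself was dim in both groups and not called (-0.12 ± 0.11, adjusted p = 0.525). Members of these GTPase families are similar in sequence, and signal shared between their probe sets was not tested. Cxcl11, Irgm1, Gbp7, Gbp2, Ido1 and Ifi47 were named after their values were seen, as part of the count of 12.

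Between 4 and 14 members of the interferon-gamma list were called when 1 array was left out. There were 4 without CDEP/OVA replicate 2, 7 without ADEP/OVA replicate 3, 8 without ADEP/OVA replicate 1, and 14 without CDEP/OVA replicate 3, the array on which these genes were lowest in its group. Without CDEP/OVA replicate 2 the adjusted p was 0.0526 for Iigp1 and Irgm1, 0.0622 for Ido1, 0.0849 for Gbp7, 0.126 for Gbp2, 0.134 for Cxcl10, 0.144 for Ifi47 and 0.192 for Cxcl11. With the means of the heart and fat lists as covariates, 3 members were called and the median log2 fold change of the list was 0.64.

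Promoters of 4 higher genes are shown because the interferon group moved together and its members are known targets of interferon regulatory factors. They are RefSeq sequences of GRCm38.p6, of the 300 bases around the gene start, written in the direction of the gene. Capitals mark matches on either strand to GAAANNGAA (the core of an interferon-stimulated response element, ISRE), which was chosen with the called genes known. Igtp lies on the plus strand at chr11:58199306-58199605, Gbp7 on the plus strand at chr3:142530086-142530385, Irgm1 on the minus strand at chr11:48871371-48871670 and Cxcl10 on the minus strand at chr5:92348840-92349139.
Igtp: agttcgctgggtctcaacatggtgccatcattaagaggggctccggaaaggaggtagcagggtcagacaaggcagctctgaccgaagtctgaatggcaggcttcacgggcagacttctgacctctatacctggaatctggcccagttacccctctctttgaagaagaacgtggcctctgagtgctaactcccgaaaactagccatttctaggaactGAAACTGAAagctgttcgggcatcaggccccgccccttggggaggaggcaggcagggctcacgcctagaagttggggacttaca
Gbp7: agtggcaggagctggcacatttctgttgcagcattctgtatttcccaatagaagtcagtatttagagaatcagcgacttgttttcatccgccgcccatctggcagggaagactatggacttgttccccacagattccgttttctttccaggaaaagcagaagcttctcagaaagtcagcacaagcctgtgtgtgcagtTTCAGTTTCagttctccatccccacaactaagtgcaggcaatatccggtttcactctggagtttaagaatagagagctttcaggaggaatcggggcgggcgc
Irgm1: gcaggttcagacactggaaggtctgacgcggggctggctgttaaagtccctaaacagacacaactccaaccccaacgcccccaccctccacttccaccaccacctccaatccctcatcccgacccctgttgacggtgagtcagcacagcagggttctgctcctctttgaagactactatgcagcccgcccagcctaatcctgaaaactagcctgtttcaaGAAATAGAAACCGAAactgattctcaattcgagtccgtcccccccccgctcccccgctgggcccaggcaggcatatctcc
Cxcl10: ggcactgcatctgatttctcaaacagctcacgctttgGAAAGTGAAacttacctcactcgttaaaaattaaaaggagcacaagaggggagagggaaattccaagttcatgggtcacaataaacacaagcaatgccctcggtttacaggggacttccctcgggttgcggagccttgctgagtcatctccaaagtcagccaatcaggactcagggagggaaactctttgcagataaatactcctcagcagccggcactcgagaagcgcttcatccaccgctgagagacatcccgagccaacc
Igtp, Gbp7 and Cxcl10 hold 1 match each, and Irgm1 holds 2 matches that overlap each other. Of the 12 called members of the interferon-gamma list, 8 had a promoter in the table, and 7 of these 8 held the motif. Every promoter shown holds a match, and Ifi47, the called list member without one, is not shown. Of 12 measured list members with a promoter, called or not, 8 held the motif (66.7%). Over all 27025 genes in the table, 9.76% held it. Among genes called higher, 18 of 83 with a promoter held the motif (21.7%), and among genes called lower 5 of 54 did (9.26%). The 18 include the 7 called list members, and also Irgm2, Ifit1 and the guanylate-binding protein gene Gbp2b. The share among higher genes is therefore not a result separate from that of the list. The others of the 18 are Chil3, Slc26a4, Gzma, Rnase2a, Smc2, Cmpk1, Trmt1l and Ripor2. A match describes the letters in this window and is not a measured binding site.

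Genes of the type I interferon response overlap with those of interferon-gamma. Of 20 measured, only Ifit1 was called, at 8.41, 8.63 and 8.38 log2 with CDEP/OVA, against 7.34, 7.77 and 7.36 with ADEP/OVA (0.98 ± 0.18, adjusted p = 0.00784). The list had a median log2 fold change of 0.44, and 18 of 20 members were above 0. Rsad2 (0.90 ± 0.26, adjusted p = 0.0738), Usp18 (0.69 ± 0.19, adjusted p = 0.0607) and Oas1a (0.64 ± 0.18, adjusted p = 0.0658) did not pass. Ifit1 lost its call without CDEP/OVA replicate 2 (adjusted p = 0.0536) or ADEP/OVA replicate 1 (0.0554), and with 1 array left out between 0 and 7 members were called. Of 11 measured MHC class I presentation genes, which interferon-gamma also induces, Tap1, the peptide transporter, was called (0.81 ± 0.20, adjusted p = 0.0445), and all 11 were above 0 with a median of 0.30. The call of Tap1 was lost in all but 1 of the fits that leave out an array, with adjusted p of up to 0.187 without ADEP/OVA replicate 1, and its dimmer probe sets gave between -0.21 and 0.01. With 1 array left out between 0 and 5 members were called. Psmb8 (0.52 ± 0.17) and Tap2 (0.51 ± 0.17) did not pass, nor did any of 9 MHC class II genes, such as H2-Ab1 (0.40 ± 0.14, adjusted p = 0.113). With the means of the heart and fat lists as covariates, no member of these lists was called, so Ifit1 and Tap1 lost their calls. The median was then 0.22 for the type I interferon list and 0.14 for MHC class I. For MHC class II it was 0.31, against 0.26 in the main fit.

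Granzymes A and B, the proteases with which cytotoxic lymphocytes kill, were higher with CDEP/OVA. Gzma was 8.53, 8.56 and 7.64 log2 in CDEP/OVA lungs, against 6.59, 6.79 and 6.96 in ADEP/OVA lungs (1.46 ± 0.25, adjusted p = 0.00556). No array overlapped between the groups, and the means of the other 6 groups lay between theirs. NDEP/OVA lungs averaged 7.49 ± 0.41, Saline/OVA lungs 7.65 ± 0.30, lungs given CDEP alone 7.46 ± 0.12, ADEP alone 7.42 ± 0.39 or NDEP alone 7.62 ± 0.11, and saline lungs 7.12 ± 0.58 (SD, n = 3 each). Against Saline/OVA neither group passed, at 0.59 for CDEP/OVA (adjusted p = 0.21) and -0.87 for ADEP/OVA (adjusted p = 0.14). Gzmb was 6.10, 6.85 and 6.04 log2 with CDEP/OVA, against 5.52, 5.59 and 5.84 with ADEP/OVA (0.68 ± 0.17, adjusted p = 0.0445), and lost its call without CDEP/OVA replicate 2 (adjusted p = 0.225) or any single ADEP/OVA array (0.0568 to 0.202). Of 13 cytotoxic lymphocyte genes these were the only 2 called, against 0.815% of all genes called higher. The median log2 fold change of the list was 0.36, and between 1 and 4 members were called with 1 array left out. With the heart and fat covariates both lost their calls, Gzma at a log2 fold change of 1.30 (adjusted p = 0.0594) and Gzmb at an adjusted p of 0.0675, and the median of the list was 0.29. Tbx21, the transcription factor of type 1 lymphocytes, was dim in both groups and gave 0.60 ± 0.16 (adjusted p = 0.0527) and Nkg7 gave 0.53 ± 0.16 (adjusted p = 0.0831).

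**Figure D3:**
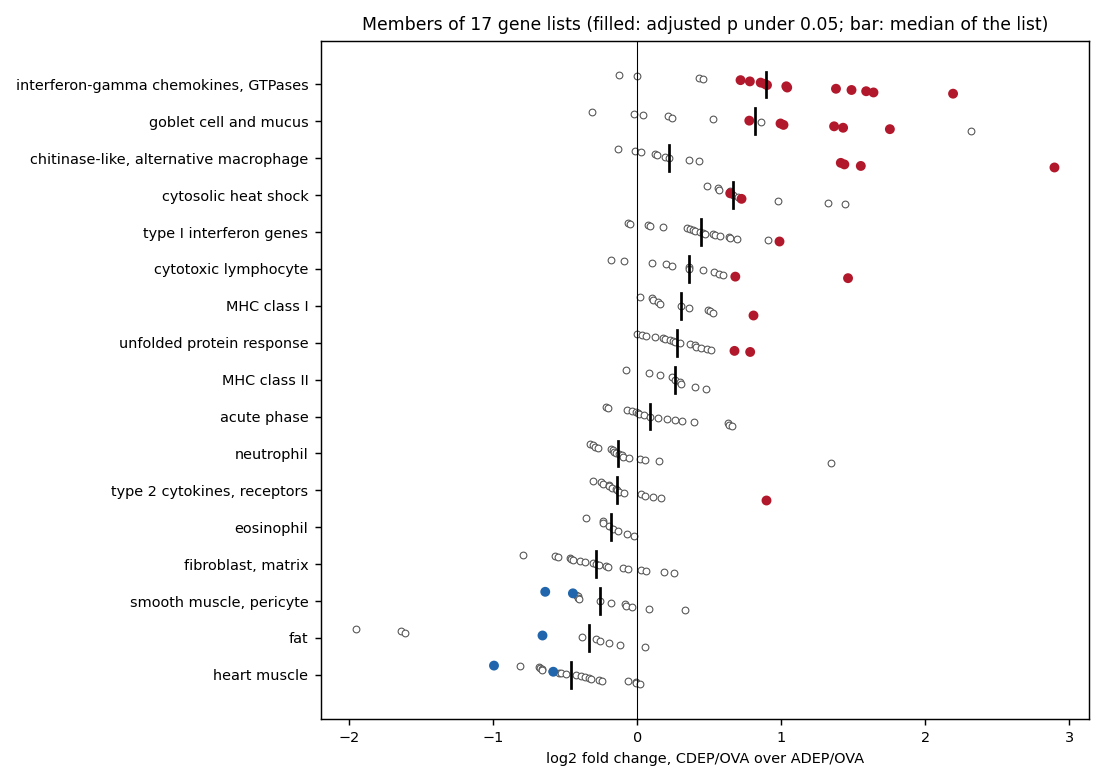
Log2 fold change of CDEP/OVA over ADEP/OVA (horizontal axis) for the measured members of 17 gene lists (rows), with called members filled and the median of each list as a bar. The interferon-gamma list has its median at 0.89 with 12 of 16 called higher, and the heart list has its median at -0.46 with 2 of 22 called lower.

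Cytosolic heat shock genes lay above 0 without exception, though few were called. All 11 measured members had a positive log2 fold change, with a median of 0.66 and a range from 0.49 to 1.44. Of the 11, 2 were called, against 0.815% of all genes called higher. Bag3, a co-chaperone, was 9.48, 9.21 and 9.64 log2 with CDEP/OVA, against 8.72, 8.92 and 8.74 with ADEP/OVA (0.65 ± 0.11, adjusted p = 0.00612). Dnaja1, an Hsp40 chaperone, was 11.40, 11.62 and 11.92 with CDEP/OVA, against 10.55, 11.25 and 10.96 with ADEP/OVA (0.72 ± 0.17, adjusted p = 0.0309). Hspa1b, the inducible Hsp70, was 11.10, 11.36 and 11.82 log2 with CDEP/OVA, against 9.19, 10.71 and 10.41 with ADEP/OVA (1.33 ± 0.35, adjusted p = 0.0539), and another of its 3 probe sets passed over all probe sets (1.71 ± 0.37, adjusted p = 0.0286). Hspa8 gave 0.57 ± 0.16 (adjusted p = 0.0657). CDEP/OVA replicate 3 was the highest and ADEP/OVA replicate 1 the lowest array for the list. The count was 6 without CDEP/OVA replicate 1, 5 without ADEP/OVA replicate 2 and 1 without any one of the other 4 arrays. Dnaja1 lost its call without any one of those other 4 arrays, with adjusted p between 0.0624 and 0.202. CDEP/OVA replicate 3 also had the largest Gapdh 3' to 5' difference of the 6 arrays (0.583), and the part of RNA quality in these values was not tested beyond a fit with both quality measures as covariates, in which 3 heat shock genes were called.

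Chaperones of the unfolded protein response, the endoplasmic reticulum counterpart, had a median log2 fold change of 0.28, with 17 of 18 above 0 and 2 called. Creld2 was 9.78, 10.04 and 10.25 log2 with CDEP/OVA, against 8.71, 9.55 and 9.45 with ADEP/OVA (0.78 ± 0.20, adjusted p = 0.0437). Dnajb9 gave 0.68 ± 0.15 (adjusted p = 0.0256). Both calls were lost without CDEP/OVA replicate 2 or 3 or ADEP/OVA replicate 1 or 3, with adjusted p of up to 0.246, and the count was between 0 and 3 with 1 array left out. Manf (0.48 ± 0.15) and Hspa5, the main chaperone of the endoplasmic reticulum (0.40 ± 0.12), did not pass, each with an adjusted p of 0.0917.

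F10, coagulation factor X, was 6.68, 6.67 and 6.18 log2 with CDEP/OVA, against 5.93, 5.79 and 5.52 with ADEP/OVA (0.77 ± 0.14, adjusted p = 0.00936), and was the only one of 15 coagulation genes called. Its dimmer probe sets gave 0.00 and 0.21, and the call was lost without CDEP/OVA replicate 2 (adjusted p = 0.0675) or ADEP/OVA replicate 3 (0.0563). Scin, an actin-severing protein, was 6.22, 5.89 and 6.93 log2 with CDEP/OVA, against 4.82, 5.36 and 5.14 with ADEP/OVA (1.24 ± 0.17, adjusted p = 0.00067). Eri1, an exoribonuclease, gave 0.52 ± 0.09 (adjusted p = 0.0064). Both were called whichever array was left out.

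Genes lower with CDEP/OVA changed less and included genes of muscle, heart, connective tissue and fat. The lowest was Ehd2, a protein of caveolae, at 8.44, 8.31 and 8.01 log2 with CDEP/OVA, against 9.47, 9.22 and 9.11 with ADEP/OVA (-1.01 ± 0.16, adjusted p = 0.00308). All 3 CDEP/OVA lungs lay below all ADEP/OVA lungs, and ADEP/OVA lungs were near those given Saline/OVA (9.41 ± 0.08), CDEP alone (9.50 ± 0.09) or ADEP alone (9.38 ± 0.23). NDEP/OVA lungs, at 8.46 ± 0.33, were near the CDEP/OVA lungs. The other probe sets of Ehd2 were much dimmer and gave -0.31 ± 0.20 and 0.23 ± 0.20, which did not pass. Fbln1, a matrix glycoprotein, was 6.73, 6.44 and 6.60 with CDEP/OVA, against 7.53, 7.37 and 7.28 with ADEP/OVA (-0.80 ± 0.13, adjusted p = 0.00372). Its relative Fbln2 gave -0.65 ± 0.13 (adjusted p = 0.0173). None of 19 fibroblast and matrix genes listed was called, their median was -0.29, and Lum was nearest the threshold (-0.79 ± 0.21, adjusted p = 0.0531).

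Of 22 heart muscle genes, 21 had a log2 fold change below 0 (median -0.46), and 2 were called lower, against 0.613% of all genes. Mb, myoglobin, was 7.25, 7.75 and 7.82 log2 with CDEP/OVA, against 8.36, 8.67 and 8.77 with ADEP/OVA (-0.99 ± 0.22, adjusted p = 0.026), and its second, dimmer probe set gave -0.07 ± 0.10. Actc1, cardiac actin, gave -0.58 ± 0.15 (adjusted p = 0.0443), while Tnni3 (-0.68 ± 0.19, adjusted p = 0.0658) and Myl4 (-0.68 ± 0.20, adjusted p = 0.0773) did not pass. 3 genes outside the list that are active in heart and muscle were called as well: Cox6a2 (-0.91 ± 0.18, adjusted p = 0.014) and Cox8b (-0.59 ± 0.15, adjusted p = 0.0487), muscle forms of cytochrome oxidase subunits, and Fabp3, the heart fatty acid-binding protein (-0.89 ± 0.16, adjusted p = 0.00753). Without OVA the heart list also had a median of -0.59 between CDEP and ADEP lungs. The calls of Mb, Actc1 and Cox8b were each lost in at least 4 of the 6 fits that leave out an array, with adjusted p of up to 0.2, and that of Cox6a2 without CDEP/OVA replicate 3 (adjusted p = 0.0537) or ADEP/OVA replicate 3 (0.0586). Mouse lung holds cardiac muscle around the pulmonary veins and borders the heart, and the part of such tissue in other results was not tested beyond the fits with the heart and fat lists as covariates.

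Smooth muscle genes had a median of -0.26, and 2 of 13 were called lower, against 0.613% of all genes. Cnn1, calponin, was 8.13, 8.39 and 8.43 log2 with CDEP/OVA, against 8.87, 8.86 and 9.14 with ADEP/OVA (-0.64 ± 0.14, adjusted p = 0.0196). Acta2, smooth muscle actin, gave -0.45 ± 0.11 (adjusted p = 0.0365) and Tagln gave -0.43 ± 0.11 (adjusted p = 0.0568). The call of Cnn1 was lost without CDEP/OVA replicate 2 or ADEP/OVA replicate 1 or 3 (adjusted p between 0.0568 and 0.0828). That of Acta2 was lost in all but the fit without ADEP/OVA replicate 2, with adjusted p of up to 0.161. Of 10 fat genes only Retn, the adipocyte hormone resistin, was called (-0.66 ± 0.17, adjusted p = 0.0437), and no fit with an array left out kept its call. Adipoq, adiponectin, ranged more widely, at 3.79, 4.11 and 4.96 with CDEP/OVA, against 5.30, 6.67 and 5.81 with ADEP/OVA, and did not pass (-1.64 ± 0.54, adjusted p = 0.104). Fabp4, a fatty acid-binding protein of fat and alveolar macrophages, gave -1.61 ± 0.52 (adjusted p = 0.0982). Slc2a4, the insulin-responsive glucose transporter of fat and muscle, was called (-0.60 ± 0.12, adjusted p = 0.0173), and its other probe set gave -0.51 ± 0.11 and passed over all probe sets (adjusted p = 0.0312).

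Among the other genes lower with CDEP/OVA, Clec2d, a ligand of natural killer cell receptors, gave -0.75 ± 0.15 (adjusted p = 0.0126), Mustn1 gave -0.67 ± 0.12 (adjusted p = 0.00735), Peak1 gave -0.64 ± 0.16 (adjusted p = 0.0471) and Clec3b gave -0.61 ± 0.15 (adjusted p = 0.0375). Of the 76 lower genes, 23 were dim in CDEP/OVA lungs, 15 of them in both groups. Gad2, a brain enzyme at 3.97, 3.91 and 3.96 log2 with CDEP/OVA, against 4.84, 4.36 and 4.47 with ADEP/OVA (-0.61 ± 0.10, adjusted p = 0.00412), is one of these, so its change lies in a range not shown to exceed background. Krt4, an oesophageal keratin dim in CDEP/OVA lungs, gave -0.48 ± 0.11 (adjusted p = 0.0319). Fbln2, Clec2d, Clec3b, Slc2a4, Peak1, Krt4 and Mustn1 each lost the call without at least 1 array, ADEP/OVA replicate 1 among them for all except Fbln2, with adjusted p of up to 0.221.

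**Figure D4:**
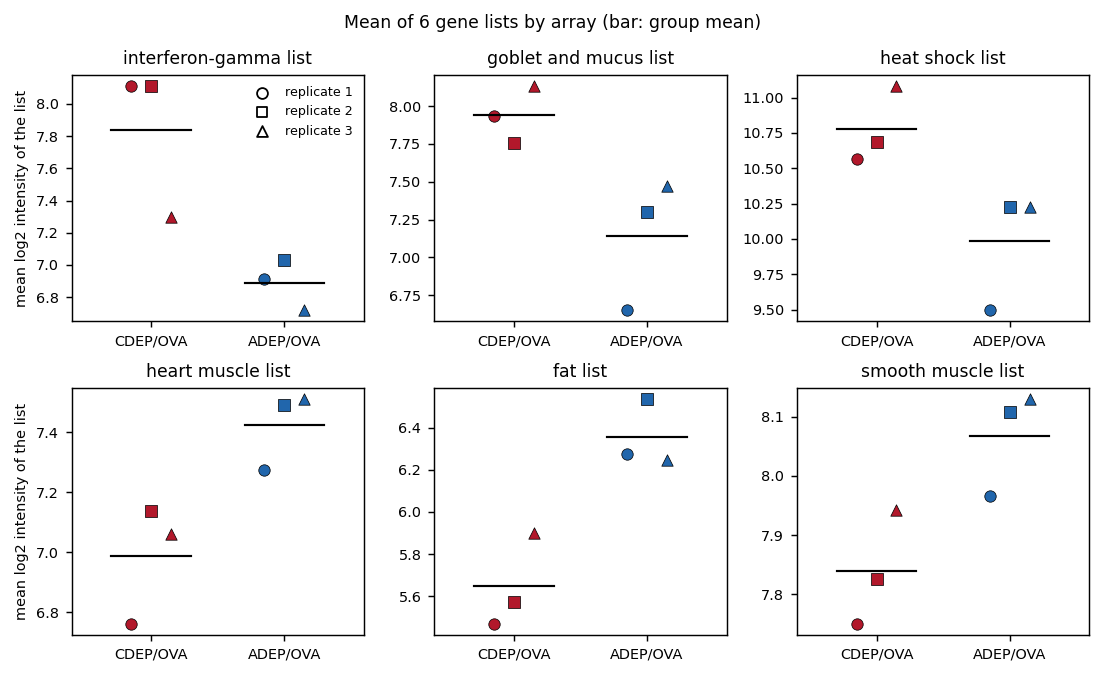
Mean log2 intensity of 6 gene lists (vertical axes) on the 3 CDEP/OVA and 3 ADEP/OVA arrays, with 1 symbol per replicate and bars for the group means. The groups do not overlap for any of these 6 lists, which were picked from 57 with earlier results of these data known. Lists without a called gene separate too. The eosinophil list reaches 4.25 with CDEP/OVA and starts at 4.28 with ADEP/OVA. The complement list starts at 8.10 with CDEP/OVA and reaches 8.06 with ADEP/OVA. Separation is therefore not particular to these 6. CDEP/OVA replicate 3 is the lowest of its group for the interferon-gamma list (7.30) and the highest for the heat shock list (11.08). ADEP/OVA replicate 1 is the lowest of its group for mucus genes (6.65).

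Acute phase and neutrophil genes, which respond strongly to inhaled particles, were not called between CDEP/OVA and ADEP/OVA lungs. None of 17 acute phase genes passed (median 0.09). With 1.43% of all genes called, none is a usual count for a list of this size. Saa3, serum amyloid A3, was 11.11, 11.63 and 10.64 log2 with CDEP/OVA, against 11.67, 11.03 and 11.32 with ADEP/OVA (-0.22 ± 0.49, 95% interval -1.23 to 0.79). Lcn2, lipocalin 2, gave -0.04 ± 0.36 (95% interval -0.78 to 0.70) and Orm1 gave 0.63 ± 0.38 (-0.16 to 1.42). The neutrophil chemokines Cxcl1 (0.39 ± 0.33, 95% interval -0.30 to 1.08) and Cxcl5 (0.43 ± 0.33, -0.25 to 1.10), the monocyte chemokine Ccl2 (0.12 ± 0.22, -0.33 to 0.57) and the neutrophil protein S100a8 (-0.18 ± 0.28, -0.76 to 0.39) did not pass. Except for that of Ccl2, these intervals reach beyond 1.5-fold in at least 1 direction, so differences of that size are not excluded for the other genes. None of 16 neutrophil markers was called, again beside 1.43% of all genes. Cd177, a neutrophil surface protein, was 9.52, 9.16 and 9.20 with CDEP/OVA, against 7.52, 7.51 and 8.79 with ADEP/OVA (1.35 ± 0.41, adjusted p = 0.0877), apart from the other markers, whose values lay between -0.33 and 0.15.

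Genes that respond to the chemicals on diesel particles were likewise not called. Cyp1a1, an enzyme induced by polycyclic aromatic hydrocarbons through the aryl hydrocarbon receptor, was 7.92, 7.69 and 7.91 log2 with CDEP/OVA, against 6.63, 7.31 and 6.67 with ADEP/OVA. The groups did not overlap, but the log2 fold change of 0.97 ± 0.26 narrowly failed (adjusted p = 0.0568). Without OVA it was 0.87 ± 0.26 between CDEP (7.62 ± 0.06) and ADEP lungs (6.74 ± 0.31), with an unadjusted p of 0.00238 and an adjusted p of 0.644. Saline lungs, at 7.39 ± 0.48, lay between the particles. Cyp1b1 (-0.25 ± 0.22, adjusted p = 0.514), and Hmox1 (-0.07 ± 0.16, adjusted p = 0.844) and Nqo1 (0.02 ± 0.14, adjusted p = 0.949), targets of the oxidative stress factor NRF2, did not pass.

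Without OVA, no gene was called between CDEP and ADEP lungs (0.0% of 12393) in the limma test, although 828 had an unadjusted limma p under 0.05 (6.68%). Of the 101 higher genes, 50 had a log2 fold change above 0 without OVA, with a median of 0.00, and of the 76 lower genes 43 were below 0, with a median of -0.03. The interferon-gamma list had a median of 0.06 without OVA, the mucus list 0.04, the chitinase and macrophage list 0.03 and the heat shock list -0.01. The smallest p belonged to Actc1 (-0.66), B3gnt5 (-0.53) and Rpap2 (-0.36), each with an adjusted p of 0.423.

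**Figure D5:**
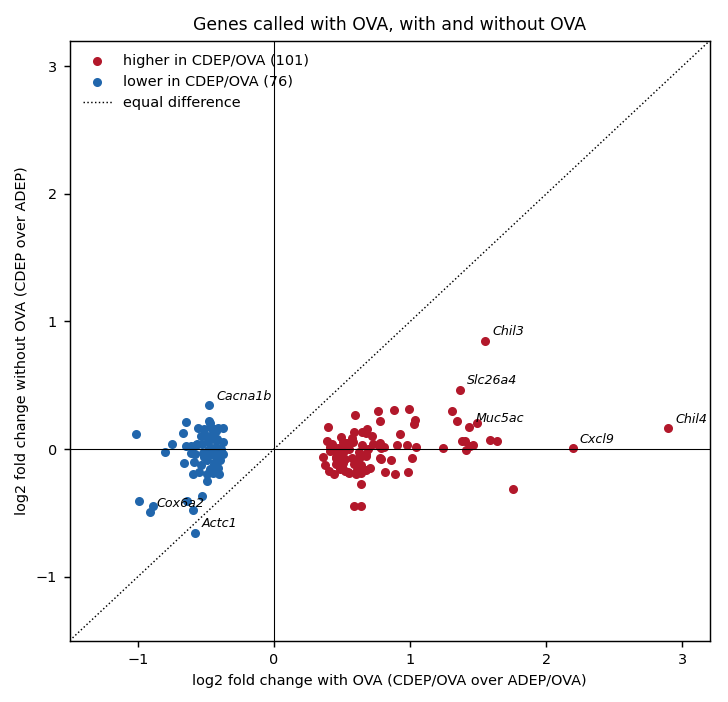
Log2 fold change with OVA (CDEP/OVA over ADEP/OVA, horizontal axis) against that without OVA (CDEP over ADEP, vertical axis) for the 177 genes called with OVA. The higher genes spread around 0 on the vertical axis with a median of 0.00, and Chil4 stands at 2.90 with OVA and 0.16 without.

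Whether the difference between the particles depended on OVA was tested as an interaction, which called 3 genes (0.0242%), 2 higher (0.0161%) and 1 lower (0.00807%), while 2243 had an unadjusted p under 0.05 (18.1%). For Chil4 the difference between CDEP and ADEP was larger with OVA by 2.74 ± 0.38 log2 units (adjusted p = 0.00193), a call kept without any 1 of the 12 arrays (2.22 to 3.10) but not with RNA quality as covariates (2.01, adjusted p = 0.11). B3gnt5, a glycosyltransferase of glycolipid synthesis, was 5.33 ± 0.06 log2 with CDEP/OVA and 4.93 ± 0.13 with ADEP/OVA, and 4.82 ± 0.07 with CDEP and 5.36 ± 0.19 with ADEP (SD, n = 3 each), an interaction of 0.93 ± 0.17 (adjusted p = 0.0468). Cacna1b, a neuronal calcium channel subunit, ran the other way at low levels, at 4.82 ± 0.08 with CDEP/OVA and 5.29 ± 0.11 with ADEP/OVA, and 5.34 ± 0.13 with CDEP and 4.99 ± 0.02 with ADEP, an interaction of -0.82 ± 0.14 (adjusted p = 0.03). The call of B3gnt5 was lost without CDEP/OVA replicate 1 or 2, ADEP/OVA replicate 1, any CDEP array, or ADEP replicate 1 or 2, with adjusted p of up to 0.163. That of Cacna1b was lost without CDEP/OVA replicate 2, ADEP/OVA replicate 1, CDEP replicate 2 or 3, or any ADEP array, with adjusted p of up to 0.137. For the other genes called with OVA, no difference between the conditions with and without OVA was established, with Muc5ac (1.26 ± 0.25) and Gbp6 (1.52 ± 0.30) each at an adjusted p of 0.0504 and Ehd2 (-1.13 ± 0.23) at 0.0531.

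Set beside Saline/OVA lungs, which both comparisons share, CDEP/OVA lungs had 594 genes called (4.79%), 449 higher (3.62%) and 145 lower (1.17%), and ADEP/OVA lungs had 85 (0.686%), 78 higher (0.629%) and 7 lower (0.0565%). Of the 101 genes higher with CDEP/OVA than with ADEP/OVA, 62 were also called higher in CDEP/OVA than in Saline/OVA lungs and 4 in ADEP/OVA lungs. Of the 76 lower genes, 27 were called lower in CDEP/OVA than in Saline/OVA lungs, and none was called in either direction in ADEP/OVA lungs. The 101 and 76 genes were picked by their values on these same CDEP/OVA and ADEP/OVA arrays. More calls in CDEP/OVA than in ADEP/OVA lungs are therefore partly built in and are no further support. The interferon-gamma list had a median of 1.10 in CDEP/OVA over Saline/OVA lungs and 0.21 in ADEP/OVA over Saline/OVA lungs, with 14 of 16 members called higher in CDEP/OVA and 0 in ADEP/OVA lungs. The mucus list had a median of 1.42 in CDEP/OVA lungs (11 of 14 called higher) and 0.52 in ADEP/OVA lungs (1 of 14), and the heat shock list had 0.64 in CDEP/OVA lungs (5 of 11) and -0.04 in ADEP/OVA lungs (0 of 11). Muc5ac was 1.93 above Saline/OVA in CDEP/OVA lungs (adjusted p = 3.4e-07) and 0.50 in ADEP/OVA lungs (adjusted p = 0.23), whereas Slc26a4 was called in both, at 4.14 in CDEP/OVA and 2.77 in ADEP/OVA lungs. Of the 17 acute phase genes, 8 were called higher than in Saline/OVA lungs with CDEP/OVA and 3 with ADEP/OVA, and Saa3 was higher by 2.20 with CDEP/OVA and 2.41 with ADEP/OVA. Of 16 neutrophil chemokines and acute cytokines, 7 were called higher with CDEP/OVA and 5 with ADEP/OVA, and Cxcl5 was higher by 2.75 with CDEP/OVA and 2.32 with ADEP/OVA.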

How the data were processed

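RNA from 24 frozen mouse lungs, 3 per group in 8 groups, was labelled from 2 ug of total RNA each and hybridised to 24 Affymetrix arrays, per the labels' protocols. The authors deposited 1 table of intensity values on a linear scale, and RMA is named in the submitters' processing notes. RMA summarises probes after background correction and quantile normalization, which compresses differences of dim genes. Values ran from 5.98 to 18195.5, with array medians between 72.2 and 75.5, and the number of arrays limits the precision. No column was left unused.

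Values were taken as log2. The platform annotation pairs 20380 of the 22690 probe sets with 1 gene symbol, 691 with more than 1 and 1555 with none, and 64 controls were left out. The probe set with the highest mean log2 over 24 arrays stood for each of 12393 genes. limma 3.58.1 in R 4.3.3 fitted the 8 group means (16 residual and 8.16 prior degrees of freedom), with Benjamini-Hochberg adjustment over all genes. The titles call the samples biological replicates and the labels used here say no more of them, so p-values measure the spread between these samples. No arrays held the same values (highest correlation 0.996).

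The members and lists were chosen with earlier results of these data known. Genes named were the 15 highest and 15 lowest called genes whose arrays did not overlap, at most 4 members per described list, taken by p, a set of always named genes, and for the comparison without OVA and the interaction the genes past the threshold or the 3 smallest p. In simulated data with 200 changed genes of 12393 (10 simulations), the CDEP/OVA against ADEP/OVA test found 79.3% of 1.5-fold and 97.8% of 2-fold changes with 4.75% false calls, and the interaction found 46.9% and 87.2% with 5.53% false calls. The simulated noise was independent between genes and arrays. Effects that many genes share on 1 array are not covered, so these rates need not hold for the real arrays. Alternatives covered all probe sets, a filter on dim genes (9671 kept), normalization, array weights, the variance model, the arrays in the fit, tissue and RNA quality covariates, the replicate block and each array left out. Promoters were RefSeq sequences of GRCm38.p6. Python 3.11.15, pandas 2.3.3, scipy 1.17.1 and matplotlib 3.10.9 were used.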

Additional observations from a re-analysis of the deposited data

Results flagged for a closer look

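The limma interaction test over all genes called 3 genes, for which the difference between CDEP and ADEP was not the same with and without OVA. With RNA quality covariates it called no gene. B3gnt5 and Cacna1b also lost their calls without several single arrays. For Chil4 the log2 difference was larger with OVA by 2.74 ± 0.38 (adjusted p = 0.00193), with CDEP/OVA above ADEP/OVA in every array pair. For B3gnt5 the interaction was 0.93 ± 0.17 (adjusted p = 0.0468), with CDEP/OVA above ADEP/OVA and CDEP below ADEP, and neither of these differences was called alone (adjusted p = 0.0831 with OVA and 0.423 without). For Cacna1b it was -0.82 ± 0.14 (adjusted p = 0.03), with CDEP/OVA below ADEP/OVA and CDEP above ADEP. Cacna1b was dim in CDEP/OVA lungs and B3gnt5 in ADEP/OVA lungs, so that the sizes of both are uncertain.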

How the results depend on the processing

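Counts of calls depended on the processing and on single arrays, while no named gene that was called turned its direction in an alternative run. In CDEP/OVA against ADEP/OVA (101 higher, 76 lower), the higher genes numbered 24 with heart and fat covariates and 12 with only the 6 compared arrays, and the lower genes 19 and 7. The lower genes numbered 41 after quantile normalization and 43 with RNA quality covariates. With 1 array left out there were 23 to 174 higher and 9 to 223 lower genes. Whether the replicate numbers pair the samples was not established. Same-numbered CDEP/OVA and ADEP/OVA arrays correlated at 0.126, 0.099 and 0.070, and differently numbered ones at -0.279 to 0.150. Same-numbered CDEP and ADEP arrays correlated at -0.077, -0.069 and -0.153, and differently numbered ones at -0.049 to 0.132. With the replicate block 121 genes were called higher and 83 lower.

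Of the interferon-gamma list (12 called), 3 were called with heart and fat covariates, 3 with only the compared arrays and 4 to 14 with 1 array left out. Of the mucus list (6), 2 were called with a trended robust variance, 1 with only the compared arrays, 1 with heart and fat covariates, 3 with RNA quality covariates and 1 to 5 with 1 array left out. Of the chitinase and macrophage list (4), 2 were called with a trended robust variance, 2 with only the compared arrays and 2 to 4 with 1 array left out. Of the heat shock list (2), 4 were called over all probe sets, 1 with array weights, 0 with only the compared arrays (limma, where the whole fit called 19 genes), 7 with the replicate block, 1 with heart and fat covariates and 1 to 6 with 1 array left out.

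The interaction called 2 genes higher and 1 lower. Higher and lower counts were 4 and 3 over all probe sets, 8 and 2 with the filter on dim genes, 6 and 3 after quantile normalization, 9 and 13 after median centring, 111 and 80 with array weights, 14 and 6 with only the compared arrays, 9 and 3 with the replicate block, 1 and 0 with heart and fat covariates, and 0 and 0 with RNA quality covariates. With 1 array left out they were 1 to 21 and 0 to 16. Without OVA no alternative called a gene.

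Signs turned only for genes that were not called. Under array weights the log2 fold change was 0.0101 for Saa3, 0.128 for Lcn2, 0.0538 for S100a8, 0.0520 for Hmox1 and -0.0280 for Nqo1. With RNA quality covariates it was 0.270 for Lcn2, 0.0276 for S100a8, 0.0845 for Hmox1 and -0.0114 for Nqo1. With heart and fat covariates it was -0.129 for Ccl24, -0.0502 for Rpap2, 0.122 for Adipoq and 0.0163 for Fabp4, and after quantile normalization 0.0230 for Il4. Adipoq and Fabp4 belong to the fat list whose mean is a covariate, so their lost difference in that fit is partly built in. With 1 array left out the range was -0.123 to 0.399 for Ccl24, -0.469 to 0.0241 for Saa3, -0.284 to 0.255 for Lcn2, -0.0869 to 0.678 for Cxcl1, -0.0292 to 0.757 for Cxcl5, -0.229 to 0.435 for Ccl2, -0.397 to 0.0904 for S100a8, -0.241 to 0.117 for Hmox1, -0.0725 to 0.103 for Nqo1 and -0.00449 to 0.0968 for Rpap2. The causes were not tested. By construction, leaving out an array or using only the compared arrays lowers the number of samples, and the fat covariate includes Adipoq and Fabp4.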

Other observations

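The following lists of other cell types, alveolar type 2 cells excepted, held no called gene between CDEP/OVA and ADEP/OVA lungs. With 1.43% of all genes called, none is a usual count for lists of this size. The 17 T cell genes had a median log2 fold change of 0.08, the 15 B cell genes 0.21, the 11 plasma cell and immunoglobulin genes 0.30, the 17 monocyte and macrophage genes 0.14 and the 15 dendritic cell genes 0.04. Irf8 of the dendritic cell list gave 0.31 ± 0.13. Its other probe set, about as bright, gave 0.59 ± 0.12 and passed over all probe sets (limma adjusted p = 0.0156). The 20 endothelial genes had a median of -0.13 and the 28 cell cycle genes 0.07. Of the 12 alveolar type 2 cell genes all lay above 0 (median 0.17), and the single called member was Il33, which is also counted among the type 2 cytokines.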
